A study of Mus with 14 samples.

Results

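The 40 S phase genes examined here encode proteins that copy DNA or duplicate chromatin, and their transcripts accumulate around the start of S phase, when a dividing cell replicates its genome. They were taken from a fixed list of DNA replication genes, and all 40 were found among the 32285 genes of the deposited matrices. Single cells of 14 mice were sequenced, with 1 library of 3' transcript ends per mouse, made in droplets from sorted bone marrow. The summed UMIs (unique molecular identifiers, each standing for 1 captured transcript) of the 40 genes gave the S phase gene level of a mouse, in CPM (UMIs per 1000000 UMIs), and each gene was also tested on its own.

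Per the series' design text, CD45.2+ bone marrow competed with CD45.1+ marrow in aged, lethally irradiated CD45.1+ hosts, which received 1 injection of poly(I:C) 1 month after the transplant. Marrow of these hosts was moved into a further set of aged, irradiated recipients, which were harvested 20 weeks later, and CD45.2+ cells without lineage markers and with surface Kit were sorted (Lin-Kit+CD45.2+). The labels name 4 genotypes: 3 mice carried MxCre, 4 are labelled Dnmt3a, 3 are labelled Dnmt3a;Tnfr1KO, and the last 4 are labelled Dnmt3a;Tnfr2KO. MxCre names a Cre recombinase under the interferon-responsive Mx1 promoter, which poly(I:C) switches on in blood-forming and some other cells, and the labels do not give the Dnmt3a allele or say whether mice of a group shared a donor. Replicates are numbered as in the labels. P-values measure the spread between these mice, and mice that share a donor would make them too small.

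In each S phase, helicase complexes loaded onto replication origins are switched on, DNA polymerases with their sliding clamp extend the new strands, and ribonucleotide reductase and thymidylate synthase supply the building blocks. Nucleosomes and DNA methylation are restored behind the fork, and repair proteins deal with stalled forks. In bone marrow, stem cells are mostly out of cycle, while committed progenitors divide often and carry much of the replication machinery.

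The libraries held 62416022 to 162869740 UMIs, and 1924 to 7265 cells per mouse passed the filters (66895 in all), with median depths of 10759 to 39086 UMIs per kept cell. Tnfrsf1b, the gene of the second tumour necrosis factor receptor, fell by 1.44 on the log2 scale in Dnmt3a;Tnfr2KO against Dnmt3a (SE 0.16, edgeR adjusted p = 0.00056). Tnfrsf1a, the gene of the first receptor, had 42.3, 33.7 and 38.5 CPM in the libraries labelled Dnmt3a;Tnfr1KO, inside the range of the other libraries (32.4 to 68.2). The 3' counts may lie outside a deleted part, so this neither checks nor contradicts a deletion, and these mice are called by their label throughout. The Dnmt3a transcript averaged 24.6 ± 3.25 CPM in MxCre, 30.5 ± 2.2 in Dnmt3a, 21.9 ± 0.583 in the libraries labelled Dnmt3a;Tnfr1KO and 23.6 ± 1.14 in Dnmt3a;Tnfr2KO (TMM-scaled, SD over mice). Dnmt3a replicate 1 stood apart: 5138 of its 7257 barcodes held under 1000 UMIs, and histone genes made up 0.856% of its UMIs against 0.137% to 0.458% elsewhere. Dnmt3a replicate 4 had the largest shares of haemoglobin (2.09%) and mature neutrophil (2.81%) transcripts and of B-lymphoid-like cells (925 of its cells). Ribosomal protein genes made up 23.0% to 31.5% of UMIs in Dnmt3a mice and 30.5% to 33.2% in the other 10. Kit, whose product the sort used, had 68.7 to 182 CPM and the blood cell gene Ptprc (CD45) 69.7 to 156 over the 14 libraries. UMIs were also found in every library for 26 of 27 marker genes of mature neutrophils, macrophages, B cells, red cells and stroma. Haemoglobin genes summed to 0.0579% to 0.288% of UMIs in MxCre, 0.0232% to 2.09% in Dnmt3a and 0.0317% to 0.22% in the receptor groups, and mature neutrophil genes to at most 1.85%, 2.81% and 0.931%. Their part in the results was not tested. Any pair of libraries shared at most 23 cell barcodes.

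The summed level of the 40 genes was higher in Dnmt3a than in the other groups when scaled to each library's UMI total. In MxCre it was 3432, 3257 and 3600 CPM in replicates 1 to 3. In Dnmt3a it was 4625, 3817, 4014 and 3782 in replicates 1 to 4. The libraries labelled Dnmt3a;Tnfr1KO had 3461, 3538 and 3387, and the Dnmt3a;Tnfr2KO libraries had 3460, 3510, 3477 and 3498. Each of the 4 Dnmt3a mice therefore lay above every one of the 10 other mice, and the other 3 groups overlapped. The means were 3430 ± 172 (SD, n = 3) in MxCre, 4060 ± 391 (SD, n = 4) in Dnmt3a, 3462 ± 75.6 (SD, n = 3) in the libraries labelled Dnmt3a;Tnfr1KO and 3486 ± 22.3 (SD, n = 4) in Dnmt3a;Tnfr2KO.

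That separation depended on the scaling. With TMM scaling, which sets the bulk of genes equal between libraries, the 4 Dnmt3a mice had 3934, 3625, 3912 and 3427 CPM, and 2 of 4 lay above every other mouse. The group means then were 3357 in MxCre, 3724 in Dnmt3a, 3653 in the libraries labelled Dnmt3a;Tnfr1KO and 3711 in Dnmt3a;Tnfr2KO. Scaled to the UMIs outside ribosomal protein genes, the Dnmt3a mice had 6231, 5575, 5598 and 4913, and 3 of 4 lay above every other mouse. As a mean over cells, in which each cell counts equally whatever its depth, Dnmt3a replicates 1 to 3 had 4502, 3602 and 3946 CPM and lay above the 10 other mice (3045 to 3456). Dnmt3a replicate 4 had 2803 on that measure, the lowest of the 14 mice. Under TMM the mean of the Dnmt3a mice still exceeded the mean of MxCre by more than the means of the 3 groups with the Dnmt3a label differed from each other.

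**Figure D1:**
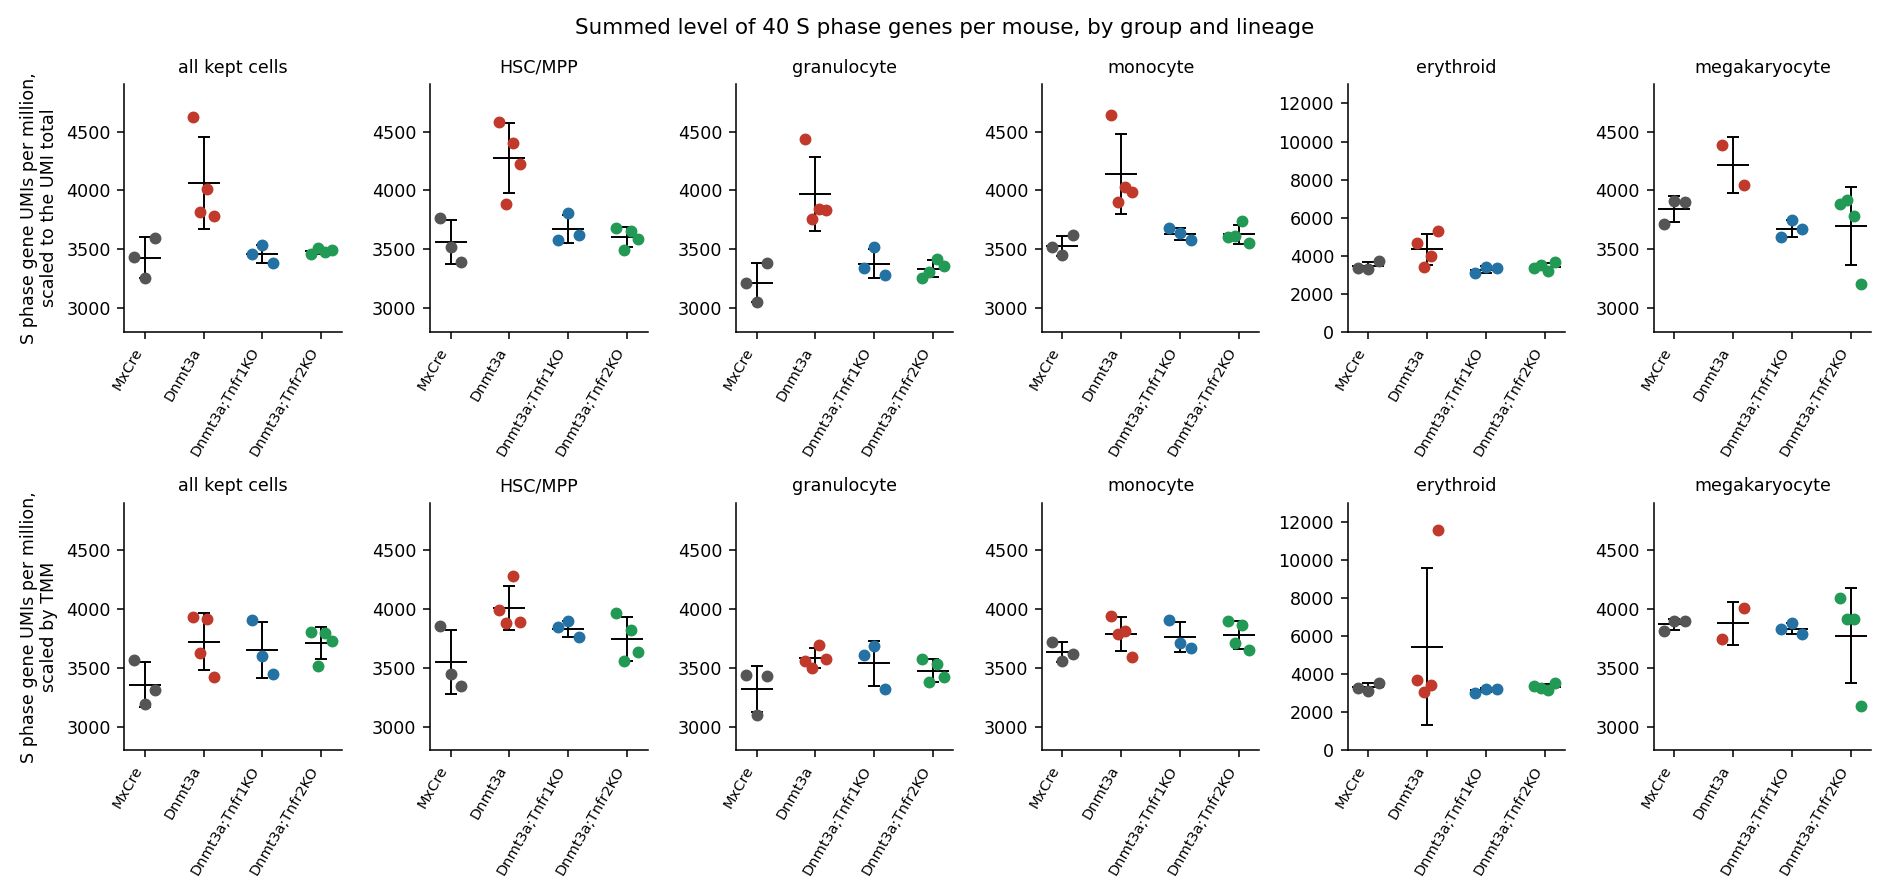
Summed CPM of the 40 S phase genes for each mouse (points), by group and lineage, with group mean ± SD (bars), scaled to the UMI total (top row) and by TMM (bottom row). In all kept cells the 4 Dnmt3a mice lie above the other 10 in the top row, and 2 of 4 do so in the bottom row. The erythroid column has its own axis, on which Dnmt3a replicate 4 reaches 11606 under TMM.

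Cells were also split by lineage, by how many of 10 marker genes per lineage they showed after thinning to 5000 UMIs each. Cells below 5000 UMIs were left out of every lineage. Stem and multipotent progenitor-like cells (HSC/MPP-like, at least 3 of Hlf, Mecom, Mllt3, Procr, Fgd5, Hoxb5, Gcnt2, Ly6a, Angpt1 and Meis1) numbered 6735. There were 20188 granulocyte-like, 7324 monocyte-like, 5269 erythroid-like and 1557 megakaryocyte-like cells, and 15507 cells reached no minimum. These classes are ranges along a marker count and not types: 49.7% of HSC/MPP-like and 44.8% of granulocyte-like cells sat exactly at the minimum. HSC/MPP-like cells had a median of 2 granulocyte markers beside their 4, and monocyte-like cells had a median of 6 granulocyte markers beside 5 of their own list.

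Within HSC/MPP-like cells the level scaled to the UMI total was 3562 ± 189 (SD, n = 3) in MxCre and 4273 ± 297 (SD, n = 4) in Dnmt3a. It was 3670 ± 119 (SD, n = 3) in the libraries labelled Dnmt3a;Tnfr1KO and 3606 ± 81.9 (SD, n = 4) in Dnmt3a;Tnfr2KO. All 4 Dnmt3a mice were above every other mouse on that scale, and 2 of 4 under TMM, where all 4 remained above every MxCre mouse. Granulocyte-like cells gave 3217 ± 167, 3969 ± 313, 3379 ± 124 and 3334 ± 71.6 in the same order, with 4 of 4 Dnmt3a mice on top, or 1 of 4 under TMM. Monocyte-like cells gave 3531 ± 85.5, 4140 ± 337, 3633 ± 51.3 and 3627 ± 80.3, again with 4 of 4 on top, or 1 of 4 under TMM.

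In erythroid-like cells the groups overlapped. The level in Dnmt3a was 4665, 3391, 3979 and 5306 CPM in replicates 1 to 4 when scaled to the UMI total, against 3072 to 3699 in the other 10 mice. Dnmt3a replicate 2 thus lay inside the range of the other groups, and under TMM 2 of 4 Dnmt3a mice were above all others. The median log2 fold change of the 40 genes between Dnmt3a and MxCre was 0.57 in these cells, and it was 0.05 without Dnmt3a replicate 4. That library carried the haemoglobin excess given above, whose part in the result was not tested. Megakaryocyte-like cells gave 4387 and 4047 CPM in Dnmt3a replicates 1 and 2 and 3205 to 3921 in the other 10 mice when scaled to the UMI total, and neither was above all others under TMM. Dnmt3a replicates 3 and 4 had 3 and 6 such cells and were not used there.

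A share of cells was the second measure. After each cell was thinned to 5000 UMIs (6744 shallower cells were left out), a cell was counted if it held at least 10 S phase gene UMIs. This held for 72.8% ± 4.6 of cells in MxCre, 79.8% ± 11.3 in Dnmt3a, 78.3% ± 1.9 in the libraries labelled Dnmt3a;Tnfr1KO and 79.1% ± 0.68 in Dnmt3a;Tnfr2KO (SD over mice). Before thinning the shares were 91.0%, 91.9%, 94.8% and 94.3%. Dnmt3a spanned 64.8% to 88.8% and covered the means of the other groups. The shallower cells were unevenly spread: 3620 of 5422 cells stayed in Dnmt3a replicate 4 and 4757 of 6150 in Dnmt3a;Tnfr1KO replicate 1. Smaller shares were left out in the other libraries. With at least 20 S phase gene UMIs as the minimum, the shares were 36.7% ± 4.5 in MxCre, 48.3% ± 7.9 in Dnmt3a, 37.3% ± 2.2 in the libraries labelled Dnmt3a;Tnfr1KO and 38.5% ± 0.59 in Dnmt3a;Tnfr2KO. Dnmt3a then spanned 40.3% to 58.0%, above the mean of each other group, and its lowest mouse overlapped MxCre, whose highest had 41.3%. The difference between Dnmt3a and MxCre was 11.6 percentage points at that minimum and 7.01 at the minimum of 10. Within HSC/MPP-like cells the thinned shares were 64.3% ± 7.6, 77.1% ± 8.2, 70.7% ± 1.4 and 67.1% ± 2.1, and those of granulocyte-like cells were 81.7% ± 5.3, 90.1% ± 2.8, 84.0% ± 2.7 and 83.5% ± 1.7. Among HSC/MPP-like cells Dnmt3a replicate 2 had 65.1% against 73.1% in MxCre replicate 1, so the groups overlapped on this measure. Among granulocyte-like cells the lowest Dnmt3a mouse had 87.1% and the highest other mouse 86.3%. T, NK and innate lymphoid-like cells, which are mostly out of cycle, gave 6.86% (60 cells of 2 mice, median depths of 6751 and 7179 UMIs before thinning, against a mean median of 23931 over all cells). These cells came from 2 of the 14 libraries, and free RNA was not measured in any.

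Gene by gene, the question for Dnmt3a against MxCre was which replication genes differ with the Dnmt3a genotype alone. Over all kept cells 1 of the 40 genes passed edgeR's quasi-likelihood test at an adjusted p below 0.05, against 2.52% of all 15615 genes tested. All 40 passed the filter on low counts. DESeq2 called 8 of the 40, against 10.7% of all genes with a DESeq2 adjusted p. The median log2 fold change of the 40 genes was 0.16, against 0.03 over all genes, and 30 of 40 were positive. The gene that passed was Brip1, which encodes a helicase that works with Brca1 in repair of stalled forks (chromosome 11, 86058136 to 86201215, RefSeq GRCm38.p6, a span of 143080 bases). Its TMM-scaled level was 16.4, 15.6 and 16.1 CPM in MxCre and 36.2, 21.3, 25.4 and 24.6 in Dnmt3a. Every Dnmt3a mouse was above every MxCre mouse, with replicate 1 highest. In all, 9 of the 40 lay higher without overlap, against 10.1% of all genes. The log2 fold change of Brip1 was 0.74 (SE 0.16, edgeR adjusted p = 0.0377). Over 16 other settings it stayed positive and its adjusted p ran from 0.000538 to 0.154, passing in 10 of them, and without Dnmt3a replicate 1 it was 0.56 and did not pass. Casp8ap2, described with the chromatin genes, had the next lowest adjusted p (log2 fold change 0.51, SE 0.13, 0.0583). The 12 genes chosen to stand for the roles had log2 fold changes from -0.13 (Pcna) to 0.61 (Rrm2) and none passed.

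HSC/MPP-like cells held more calls. Here 10 of the 40 genes rose in Dnmt3a against MxCre and none fell, where 4.26% of the 11913 genes tested rose and 5.14% fell. The median log2 fold change was 0.21 against 0.00 over all genes, and 34 of 40 were positive. By role, 4 of 7 DNA repair genes rose, as did 2 of 10 replication fork genes, 2 of 9 chromatin duplication genes, 1 of 3 deoxynucleotide supply genes and 1 of 9 licensing and helicase genes, while neither of the 2 genes of S phase entry control passed. All 10 were without overlap between the mice of the 2 groups; 14 of the 40 genes lay higher without overlap, against 10.2% of all genes.

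Among licensing genes, Dtl encodes the substrate receptor of the ubiquitin ligase that removes the licensing factor Cdt1 at the fork. It had 82.7, 78.6 and 79.6 CPM in MxCre and 110, 94.1, 115 and 100 in Dnmt3a (TMM-scaled, as for all single genes). Each Dnmt3a mouse was above the MxCre mice, and the log2 fold change was 0.38 (SE 0.10, edgeR adjusted p = 0.0234). Mcm5, a subunit of the replicative helicase, did not differ beyond its spread (log2 fold change 0.09, SE 0.11, adjusted p = 0.661). Cdc6, which loads that helicase onto origins, had a log2 fold change of 0.21 (SE 0.12, adjusted p = 0.277).

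At the fork, Pola1 encodes the catalytic subunit of DNA polymerase alpha, which begins each new strand with primase (chromosome X, 93304766 to 93632387, a span of 327622 bases). It had 75.8, 73.2 and 69.4 CPM in MxCre and 133, 97.8, 102 and 102 in Dnmt3a. The groups did not overlap, replicate 1 of Dnmt3a was highest, and the log2 fold change was 0.58 (SE 0.14, edgeR adjusted p = 0.019). Clspn encodes claspin, which couples stalled forks to the Chk1 checkpoint kinase. It had 58.2, 59.4 and 56.6 CPM in MxCre and 88.9, 77.5, 87.3 and 68.2 in Dnmt3a, and the lowest Dnmt3a mouse was replicate 4 (log2 fold change 0.48, SE 0.12, adjusted p = 0.0178). Pcna, the sliding clamp, lay the other way, with 261, 279 and 264 in MxCre and 207, 247, 237 and 232 in Dnmt3a. Its groups did not overlap either, but the log2 fold change of -0.21 (SE 0.10) did not pass (edgeR adjusted p = 0.199).

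Rrm1 and Rrm2 encode the large and small subunits of ribonucleotide reductase. Rrm1 had 142, 134 and 130 CPM in MxCre and 200, 143, 186 and 203 in Dnmt3a, where replicate 2 lay next to the MxCre range (log2 fold change 0.43, SE 0.11, edgeR adjusted p = 0.0225). Rrm2 had 62.0, 42.7 and 42.8 in MxCre and 53.9, 58.1, 96.8 and 107 in Dnmt3a. Its groups overlapped, and a log2 fold change of 0.67 (SE 0.22) did not pass (edgeR adjusted p = 0.0648). Tyms, thymidylate synthase, had a log2 fold change of 0.15 (SE 0.15, adjusted p = 0.576).

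Repair genes gave the most calls for their number. Blm encodes the Bloom syndrome helicase, which resolves recombination intermediates (chromosome 7, 80454993 to 80535148). It had 36.7, 30.4 and 30.9 CPM in MxCre and 59.1, 37.7, 49.0 and 46.1 in Dnmt3a, where replicate 2 was only just above the highest MxCre mouse (log2 fold change 0.56, SE 0.13, edgeR adjusted p = 0.0155). Brip1 had 21.9, 20.1 and 18.8 in MxCre and 36.9, 24.8, 27.8 and 30.5 in Dnmt3a, without overlap (log2 fold change 0.57, SE 0.16, adjusted p = 0.0359). Usp1 encodes the deubiquitinase that strips ubiquitin from Pcna and Fancd2. It had 126, 122 and 121 in MxCre and 185, 147, 157 and 162 in Dnmt3a (log2 fold change 0.40, SE 0.09, adjusted p = 0.0158). Exo1, a 5' to 3' exonuclease of mismatch repair and end resection, had 24, 21.3 and 21.7 in MxCre and 34.5, 24.9, 30.4 and 29.6 in Dnmt3a (log2 fold change 0.42, SE 0.12, adjusted p = 0.0419). In all 4 repair genes replicate 2 was the lowest Dnmt3a mouse and replicate 1 the highest.

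Of the chromatin genes, Casp8ap2 (FLASH, needed for histone transcript processing) had 65.1, 59.4 and 55.3 CPM in MxCre and 98.9, 76.4, 85.7 and 68.2 in Dnmt3a (log2 fold change 0.47, SE 0.14, edgeR adjusted p = 0.0476). Atad2, a bromodomain ATPase of replicating chromatin, had 131, 140 and 127 in MxCre and 205, 167, 171 and 146 in Dnmt3a (log2 fold change 0.38, SE 0.11, adjusted p = 0.0457). In both genes the Dnmt3a mice were above all MxCre mice and replicate 4 was nearest to them. Uhrf1, which brings Dnmt1 to newly copied DNA, had a log2 fold change of 0.10 (SE 0.09, adjusted p = 0.544), and Chaf1b, a subunit of the histone chaperone CAF-1, one of -0.17 (SE 0.11, adjusted p = 0.387). Among S phase entry genes, Ccne2 (cyclin E2) had -0.29 (SE 0.19, adjusted p = 0.362) and E2f8, a repressor of E2F target genes, 0.36 (SE 0.18, adjusted p = 0.215).

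The count of 10 in HSC/MPP-like cells was 12 with DESeq2 (10.2% of all genes with an adjusted p), 7 without Dnmt3a replicate 1 and 6 without Dnmt3a replicate 3 (6.34% and 6.43% of all genes). It was 0 without MxCre replicate 2 and 0 without MxCre replicate 3, each of which left 2 control mice and called 2.81% and 2.0% of all genes.

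Granulocyte-like cells gave calls in 3 comparisons. In Dnmt3a against MxCre 8 of the 40 genes rose, where 2.7% of the 13290 genes tested rose and 2.23% fell, and none of the 40 fell; the median log2 fold change was 0.15 against 0.01 over all genes. They were Brip1, Pola1, Atad2, Casp8ap2, Blm, Usp1, Clspn and Exo1, with log2 fold changes of 0.68, 0.63, 0.57, 0.56, 0.47, 0.46, 0.45 and 0.40. All 8 of these were among the 10 called in HSC/MPP-like cells. Both lineages come from the same mice and libraries, so this is not an independent result. The share of all called genes that passed in both lineages is not given. Brip1 had 15.4, 14 and 14.9 CPM in MxCre and 30.4, 21.0, 22.3 and 20.9 in Dnmt3a (SE 0.13, edgeR adjusted p = 0.0177). Pola1 had 44.7, 43.9 and 45.7 in MxCre and 93.2, 62.0, 63.7 and 58.5 in Dnmt3a (SE 0.14, adjusted p = 0.0281). For both genes replicate 1 was far above the other 3 Dnmt3a mice, which were close together and clear of MxCre. Blm was the gene among the 8 whose groups overlapped, with 25.5, 25.3 and 29.5 in MxCre and 46.8, 28.4, 37.9 and 35.4 in Dnmt3a. DESeq2 called 10 of the 40, against 10.8% of all genes. The count by edgeR was 4 without Dnmt3a replicate 1 and 5 without Dnmt3a replicate 3 (2.34% and 3.52% of all genes). It was 0 when any 1 of the MxCre mice was left out, where 0.0819% to 0.390% of all genes were called. Without Dnmt3a replicate 1 the log2 fold change of Atad2 was 0.38.

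Among the other genes that stand for the roles, none passed in granulocyte-like cells. Rrm2 had a log2 fold change of 0.20 (SE 0.21), Cdc6 0.18 (SE 0.11), Mcm5 -0.09 (SE 0.11), Pcna -0.16 (SE 0.11), Tyms -0.04 (SE 0.16), Uhrf1 0.03 (SE 0.10), Chaf1b 0.02 (SE 0.12), Ccne2 -0.04 (SE 0.19) and E2f8 0.21 (SE 0.14). Their edgeR adjusted p-values ran from 0.346 for Cdc6 to 0.959 for Chaf1b. Deoxynucleotide supply and licensing genes thus held no call there, and the calls were 4 of 7 repair genes, 2 of 10 fork genes and 2 of 9 chromatin genes.

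**Figure D2:**
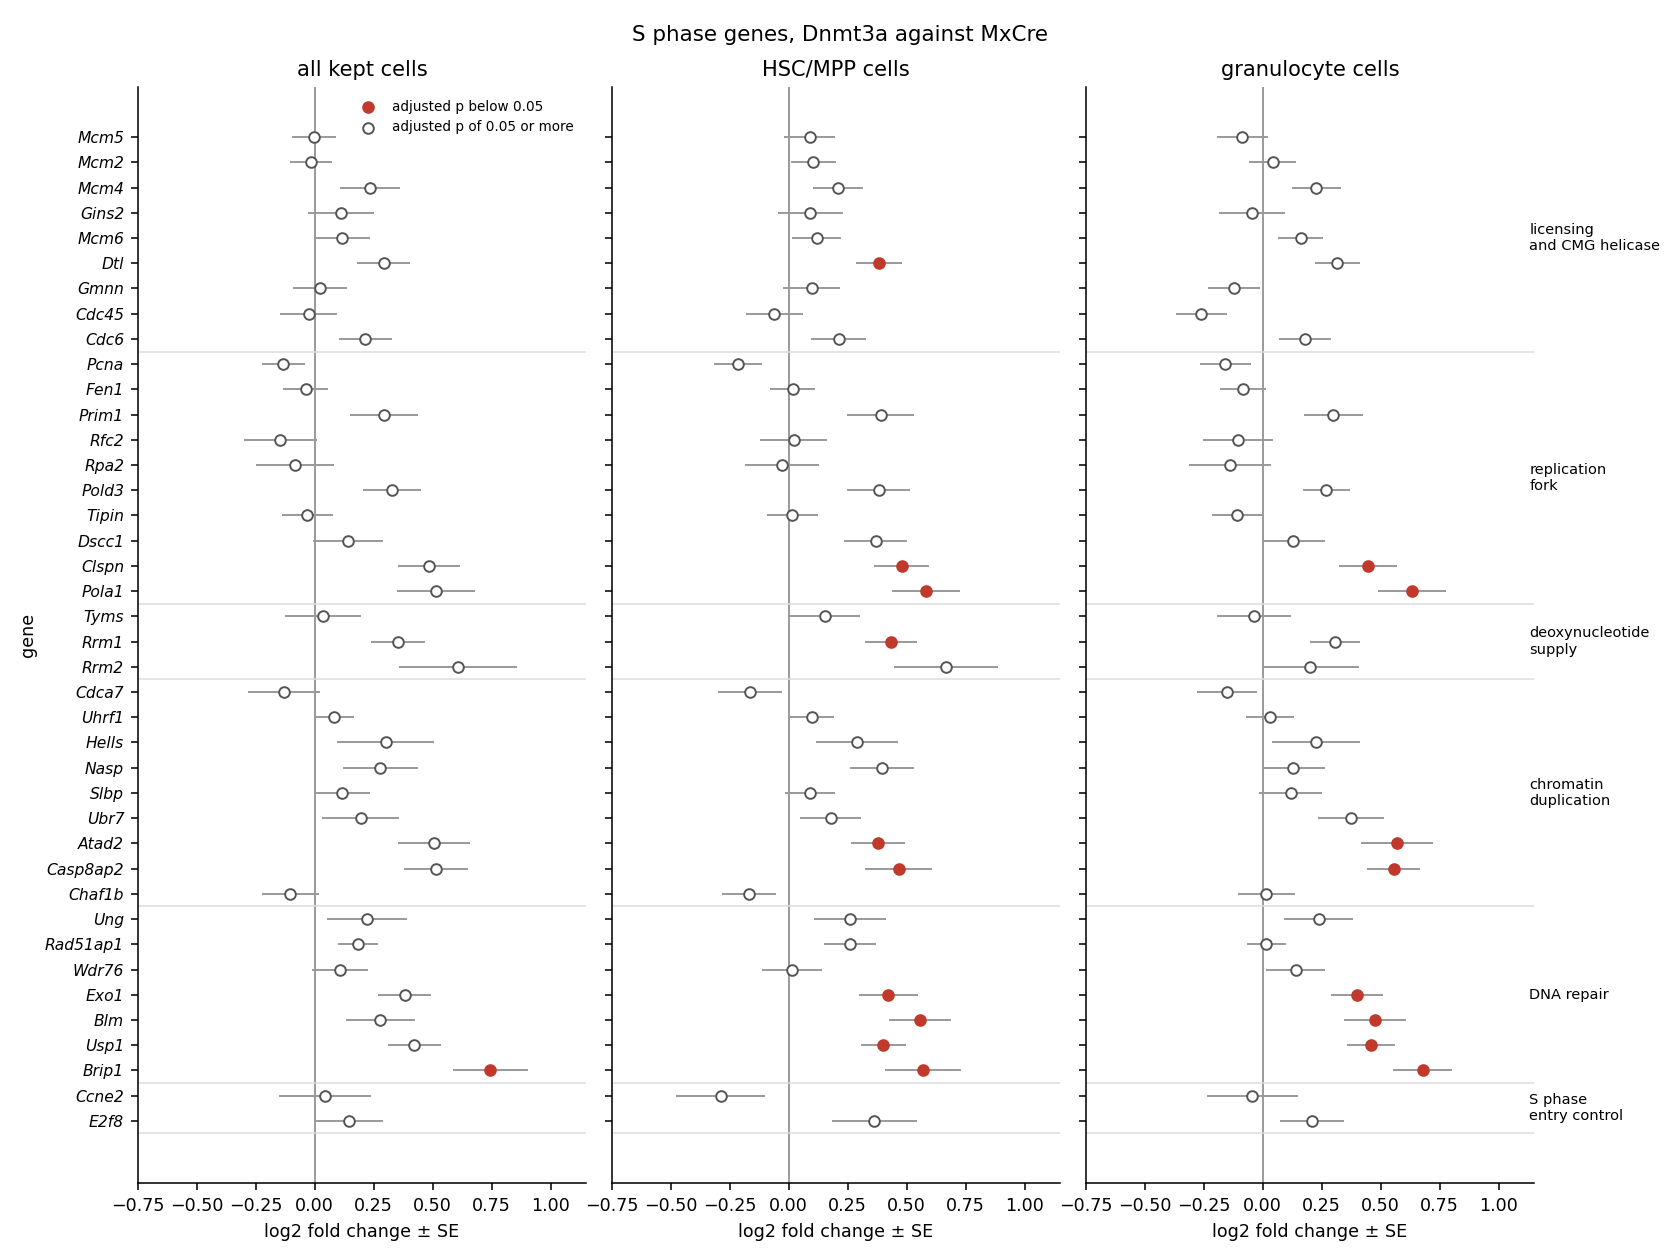
Log2 fold change in Dnmt3a against MxCre of each of the 40 S phase genes (rows, grouped by role) in all kept cells, HSC/MPP-like cells and granulocyte-like cells (panels), with ± SE bars, filled red where the edgeR adjusted p was below 0.05. The red points number 1, 10 and 8, and all lie right of 0.

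The comparisons of the receptor knockout groups with Dnmt3a ask what loss of each receptor changes on the Dnmt3a background. They use the same 4 Dnmt3a mice as the comparison above, so values of opposite sign share those mice and are not independent of it. In the libraries labelled Dnmt3a;Tnfr1KO, 3 of the 40 genes fell in granulocyte-like cells (1.96% of all genes tested fell and 1.84% rose) and none rose. Pola1 had 52.5, 42.0 and 47.3 CPM against 93.2, 62.0, 63.7 and 58.5 in Dnmt3a, a log2 fold change of -0.55 (SE 0.14, edgeR adjusted p = 0.0447). Blm had 26.8, 25.7 and 26.3 against 46.8, 28.4, 37.9 and 35.4 (-0.50, SE 0.13, adjusted p = 0.0445). Brip1 had 17.6, 17.2 and 15.2 against 30.4, 21.0, 22.3 and 20.9 (-0.50, SE 0.12, adjusted p = 0.036). The groups did not overlap for these 3 genes. In all, 8 of the 40 lay lower without overlap, against 9.98% of all genes. The values of the knockout-labelled mice for the 3 called genes overlapped those of MxCre. Over the 40 genes the median log2 fold change was -0.02, against -0.01 over all genes, and 18 of 40 were positive.

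In Dnmt3a;Tnfr2KO against Dnmt3a, 5 of the 40 genes fell in granulocyte-like cells (2.4% of all genes fell and 1.92% rose) and none rose. Brip1 had 16.5, 15.0, 16.1 and 15.3 CPM, a log2 fold change of -0.59 (SE 0.11, edgeR adjusted p = 0.0147). Pola1 had 51.7, 46.1, 52.9 and 43.2 (-0.52, SE 0.13, adjusted p = 0.0431), and Blm had 27.5, 27.8, 27 and 25.4 (-0.46, SE 0.12, adjusted p = 0.0433). Usp1 had 121, 116, 120 and 115 against 182, 136, 152 and 146 in Dnmt3a (-0.38, SE 0.09, adjusted p = 0.0364), and Dtl 56.1, 57.7, 52.7 and 56.2 against 72.7, 67.6, 70.5 and 68.8 (-0.33, SE 0.09, adjusted p = 0.047). All 4 Dnmt3a;Tnfr2KO mice were below all 4 Dnmt3a mice for each of these 5 genes, and they varied little among themselves. In all, 10 of the 40 lay lower without overlap, against 7.38% of all genes. Over the 40 genes the median log2 fold change was -0.08, against -0.01 over all genes, and 17 of 40 were positive. Without Dnmt3a replicate 1 the counts were 1 and 1 in place of 3 and 5, where 2.1% and 1.48% of all genes were called. Without Dnmt3a replicate 3 they were 1 and 3 (2.94% and 4.78% of all genes), without Dnmt3a replicate 4 they were 2 and 3 (2.6% and 2.43%), and without Dnmt3a replicate 2 they were 6 and 7 (6.59% and 7.5%). They were 0 and 1 when any 1 mouse of the knockout group compared was left out, where 0.154% to 0.908% and 0.675% to 2.93% of all genes were called. Without Dnmt3a replicate 1 the log2 fold change of Pola1 was -0.36 in the libraries labelled Dnmt3a;Tnfr1KO and -0.33 in Dnmt3a;Tnfr2KO. DESeq2 called 9 and 8 of the 40 in these comparisons, against 9.29% and 12.3% of all genes.

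Of the 12 genes that stand for the roles, Pola1 and Blm thus fell in both receptor comparisons of granulocyte-like cells and the other 10 did not pass. In the libraries labelled Dnmt3a;Tnfr1KO these had log2 fold changes of 0.20 (Mcm5), -0.01 (Cdc6), 0.09 (Pcna), -0.05 (Rrm2), 0.11 (Tyms), -0.02 (Uhrf1), 0.17 (Chaf1b), -0.18 (Exo1), 0.09 (Ccne2) and -0.36 (E2f8). In Dnmt3a;Tnfr2KO they were 0.13, -0.15, 0.03, -0.06, 0.10, -0.18, 0.13, -0.17, -0.18 and -0.42 in the same order. E2f8 had the lowest edgeR adjusted p of the 10 in both (0.131 and 0.063).

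In HSC/MPP-like cells no S phase gene passed edgeR's test in either receptor comparison, where edgeR called 0.915% and 0.68% of all genes. At an unadjusted p below 0.05 there were 10 and 14 of the 40, against 15.8% and 15% of all genes. DESeq2 called 2 of the 40 in each, against 2.07% and 2.01% of all genes. Blm had 30.8, 31.9 and 34.6 CPM in the libraries labelled Dnmt3a;Tnfr1KO (log2 fold change -0.57, SE 0.14, edgeR adjusted p = 0.0571), and Usp1 had a log2 fold change of -0.35 (SE 0.10, adjusted p = 0.091). In Dnmt3a;Tnfr2KO, Rrm1 had 140, 136, 133 and 136 (-0.43, SE 0.10, adjusted p = 0.0644), and Clspn had 64.7, 53.7, 69.3 and 58.1 (-0.40, SE 0.11, adjusted p = 0.0935). Both Rrm1 and Blm lay below every Dnmt3a mouse in the knockout group named for them. In all, 5 of the 40 lay lower without overlap for Dnmt3a;Tnfr1KO and 4 for Dnmt3a;Tnfr2KO, against 6.14% and 3.04% of all genes. The median log2 fold change was -0.11 for Dnmt3a;Tnfr1KO, with 14 of 40 positive, and -0.16 for Dnmt3a;Tnfr2KO, with 6 of 40 positive, against 0.00 and 0.01 over all genes. The 12 genes that stand for the roles ran from -0.57 (Blm) to 0.26 (Ccne2) in the first comparison and from -0.43 (Rrm2) to 0.11 (Chaf1b) in the second.

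Over all kept cells no S phase gene passed in the receptor comparisons, where 0.557% and 0.986% of all genes did. At an unadjusted p below 0.05 there were 12 and 13 of the 40, against 19.8% and 23.1% of all genes. DESeq2 gave 1 call in each, against 6.34% and 7.64% of all genes. Brip1 had the lowest adjusted p in both, with log2 fold changes of -0.51 (SE 0.16, edgeR adjusted p = 0.123) and -0.54 (SE 0.14, adjusted p = 0.0788). Next were Pola1 at -0.48 (SE 0.16, adjusted p = 0.144) for Dnmt3a;Tnfr1KO and Usp1 at -0.29 (SE 0.10, adjusted p = 0.131) for Dnmt3a;Tnfr2KO. Those that stand for the roles ran from -0.48 (Pola1) to 0.20 (Mcm5) and from -0.38 (Pola1) to 0.17 (Chaf1b). The medians of the 40, -0.06 and -0.06, were close to those of all genes, -0.05 and -0.03. When each mouse was left out they ran from -0.081 to -0.011 and from -0.10 to -0.023, the smallest without Dnmt3a;Tnfr1KO replicate 3 and without Dnmt3a replicate 1.

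The direct comparison of Dnmt3a;Tnfr2KO with the libraries labelled Dnmt3a;Tnfr1KO gave no call among the 40 genes by edgeR or DESeq2 over all kept cells or in any of the 5 lineages (in erythroid-like cells DESeq2 gave 36 of them an adjusted p), where few genes of any kind passed edgeR's test: 0.205% over all kept cells, 0.118% in HSC/MPP-like, 0.248% in granulocyte-like, 0.19% in monocyte-like, 0.046% in erythroid-like and 0.0618% in megakaryocyte-like cells. The shares of all genes called by DESeq2 were 0.705%, 0.176%, 0.543%, 0.297%, 0.0862% and 0.0825% in the same order. At an unadjusted p below 0.05 there were 2 of the 40 in HSC/MPP-like cells, where 4.79% of all genes were, and 0 elsewhere. The shares of all genes at that threshold were 3.94% over all kept cells, 3.67% in granulocyte-like, 2.91% in monocyte-like, 1.28% in erythroid-like and 4.68% in megakaryocyte-like cells. The lowest adjusted p was 0.91, for Cdc45, a subunit of the active helicase, in HSC/MPP-like cells (log2 fold change -0.32, SE 0.13), and all 12 genes that stand for the roles had an adjusted p of 1.00 over all kept cells and in each lineage. In HSC/MPP-like cells these ran from -0.45 (Ccne2) to 0.24 (Blm), and in granulocyte-like cells from -0.28 (Ccne2) to 0.04 (Blm). Over all kept cells they ran from -0.23 (Ccne2) to 0.10 (Exo1). Brip1 differed by -0.03 (SE 0.16) there and Rrm2 by 0.02 (SE 0.25). The median over the 40 genes was 0.02, equal to that of all genes, and it ran from -0.016 without Dnmt3a;Tnfr1KO replicate 3 to 0.083 without Dnmt3a;Tnfr1KO replicate 1.

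Monocyte-like cells gave no call by edgeR in any comparison, with 1.24%, 1.29% and 1.91% of all genes called in the 3 comparisons that use Dnmt3a. In each, 10 of the 40 had an unadjusted p below 0.05, against 19.7%, 18.6% and 22.6% of all genes. DESeq2 called 2, 1 and 1 of the 40, against 6.22%, 6.27% and 5.48% of all genes. Casp8ap2 had 51.4, 45.1 and 49.2 CPM in MxCre and 83.8, 60.5, 68.0 and 60.4 in Dnmt3a (log2 fold change 0.49, SE 0.13, edgeR adjusted p = 0.0652). Brip1 had 18.1, 22.4 and 19.9 against 42.4, 24.1, 30.8 and 27.8 (0.64, SE 0.18, adjusted p = 0.0703). Neither gene's groups overlapped. In all, 7 of the 40 lay higher and 2 lower without overlap, against 8.87% and 8.23% of all genes. Cdca7, which helps the remodeller Hells open chromatin for maintenance methylation, had log2 fold changes of 0.43 (SE 0.14, adjusted p = 0.12) in the libraries labelled Dnmt3a;Tnfr1KO and 0.40 (SE 0.13, adjusted p = 0.0996) in Dnmt3a;Tnfr2KO against Dnmt3a. Next in order were Cdc45 (0.30, SE 0.10, adjusted p = 0.142) in the first of these comparisons and Brip1 (-0.48, SE 0.15, adjusted p = 0.102) in the second. Among the genes that stand for the roles, Pola1 lay furthest from 0 in each of the 3 comparisons that use Dnmt3a (0.43, -0.40 and -0.36).

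In erythroid-like cells edgeR called no member in the 3 comparisons that use Dnmt3a, where 0%, 0.0276% and 0.0828% of all genes were called. At an unadjusted p below 0.05 there were 16, 16 and 15 of the 40, against 16.6%, 12.4% and 16.2% of all genes. DESeq2 called none of the 34, 36 and 28 members to which it gave an adjusted p, against 3.8%, 0.574% and 2.75% of all genes. Rrm2 shows the spread there: Dnmt3a replicates 1 to 4 had 65.9, 39.9, 109 and 1732 CPM, against 57.7 to 128 in the other 10 mice. Its log2 fold changes in the 3 comparisons were 2.74, -2.58 and -2.68, the furthest from 0 of the genes that stand for the roles, and Chaf1b lay nearest to 0 (0.12, -0.13 and -0.08). Several members tied at the lowest adjusted p of each comparison (0.272, 0.4 and 0.269). By unadjusted p the first of them were Casp8ap2 (log2 fold change 0.77, SE 0.27) and Atad2 (1.27, SE 0.45) in Dnmt3a against MxCre. They were Casp8ap2 (-0.78, SE 0.27) and Pola1 (-0.80, SE 0.28) in the libraries labelled Dnmt3a;Tnfr1KO, and Rrm2 (SE 0.94) and Clspn (-1.18, SE 0.42) in Dnmt3a;Tnfr2KO.

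In megakaryocyte-like cells, where Dnmt3a had 2 mice, 1 member rose in Dnmt3a against MxCre (0.886% of all genes rose). This was Casp8ap2, with 65.2, 69.4 and 58.8 CPM in MxCre and 109 and 94.7 in Dnmt3a (log2 fold change 0.66, SE 0.16, edgeR adjusted p = 0.0439). Its call held in 4 of 10 other settings, with adjusted p-values from 0.0128 to 0.436 (0.0809 with a trend with gene span removed), and the count of members called ran from 0 without MxCre replicate 1 to 7 without Dnmt3a replicate 2 (0.430% and 13.7% of all genes). The latter leaves Dnmt3a replicate 1 as the only Dnmt3a mouse, assumed to vary like the other groups. DESeq2 called 2 of the 27 members with an adjusted p, against 10.5% of all genes. None passed edgeR's test in the receptor comparisons there (0.402% and 0.433% of all genes did). At an unadjusted p below 0.05 there were 5 and 4 of the 40, against 14% and 14.3% of all genes, and DESeq2 called none of the 26 and 28 members with an adjusted p, against 5.12% and 3.1% of all genes. Tyms was next after Casp8ap2 in Dnmt3a against MxCre (-0.60, SE 0.19, edgeR adjusted p = 0.0951). In the receptor comparisons Casp8ap2 (-0.58, SE 0.18, adjusted p = 0.158) and Tyms (0.58, SE 0.20, adjusted p = 0.212) led for Dnmt3a;Tnfr1KO, and E2f8 (-0.59, SE 0.20, adjusted p = 0.203) and Tyms (0.51, SE 0.19, adjusted p = 0.233) for Dnmt3a;Tnfr2KO. The genes that stand for the roles ran from -0.60 (Tyms) to 0.52 (E2f8) in Dnmt3a against MxCre and, in the receptor comparisons, from E2f8 (-0.33 and -0.59) to Tyms.

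Fold changes moved with the length of the gene's span on the genome, for all genes and for the S phase genes. Over all kept cells, genes were split by span into 5 groups of equal number, from 154 to 6969 bases at the short end and from 63693 bases at the long end. The median log2 fold change of all genes in Dnmt3a against MxCre was -0.10, -0.02, 0.04, 0.11 and 0.16 from the shortest to the longest group. The 3, 12, 12, 10 and 3 S phase genes in these groups had medians of -0.04, 0.11, 0.13, 0.31 and 0.51. In the libraries labelled Dnmt3a;Tnfr1KO against Dnmt3a the order turned, with medians of all genes from 0.13 in the shortest to -0.26 in the longest group and of S phase genes from 0.07 to -0.48. Dnmt3a;Tnfr2KO against Dnmt3a gave 0.15 to -0.23 for all genes and 0.05 to -0.38 for S phase genes. The members of the longest group were Pola1, Brip1 and Blm, those named most often above.

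With the span trend removed from each library, an alternative added after the data had been seen, 9 of the 10 calls in HSC/MPP-like cells remained and that of Casp8ap2 did not (edgeR adjusted p = 0.0598). Pola1 then had a log2 fold change of 0.51 (adjusted p = 0.0191) and Blm 0.47 (adjusted p = 0.0185) in these cells. In granulocyte-like cells Casp8ap2, Usp1 and Brip1 remained of the 8, with log2 fold changes of 0.47, 0.53 and 0.48. The 5 that no longer passed had 0.47 (Atad2), 0.40 (Pola1), 0.37 (Clspn), 0.34 (Exo1) and 0.32 (Blm), with edgeR adjusted p-values of 0.0527 to 0.0949. In the libraries labelled Dnmt3a;Tnfr1KO none of the 3 calls in granulocyte-like cells remained: Pola1 went from -0.55 to -0.27, Brip1 from -0.50 to -0.28 and Blm from -0.50 to -0.32. In Dnmt3a;Tnfr2KO Usp1 remained of the 5 (-0.47, adjusted p = 0.0363), while Pola1 went from -0.52 to -0.24, Brip1 from -0.59 to -0.36, Blm from -0.46 to -0.28 and Dtl from -0.33 to -0.25. Over all kept cells Brip1 was still called in Dnmt3a against MxCre (0.60, adjusted p = 0.0398). The share of all genes called with the trend removed is not given here. These counts therefore do not show whether S phase genes lost calls more often than other genes.

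**Figure D3:**
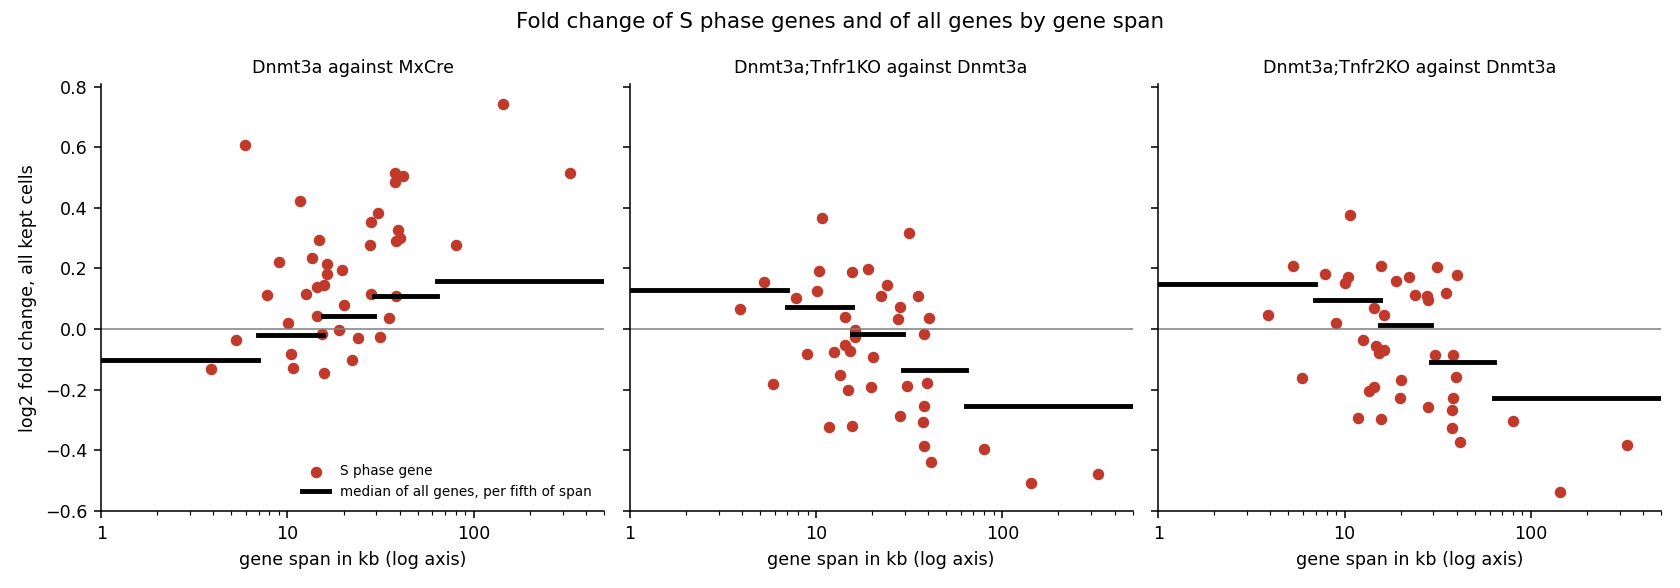
Log2 fold change over all kept cells of each S phase gene (red points) against its span on the genome in kb (log axis), with the median of all genes in each of 5 groups by span (black bars), for Dnmt3a against MxCre and the 2 receptor comparisons. The bars step up from -0.10 to 0.16 in the first panel and down in the other 2. In the first panel the medians of the S phase genes, -0.04 to 0.51, lie above the bar in each of the 5 groups, with Brip1 at 0.74 and Pola1 at 0.51 at the long end of the first panel.

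Of 50 other DNA replication genes, 3 rose in HSC/MPP-like cells in Dnmt3a against MxCre and none fell, a share near the 4.26% of all genes that rose. They were Ticrr, which activates the helicase at origins (0.70), Timeless, a fork protection factor (0.61), and Orc2, an origin recognition subunit (0.50). Ticrr had 13.6, 13.2 and 13.9 CPM in MxCre and 26.9, 16.0, 24.1 and 20.2 in Dnmt3a. In granulocyte-like cells 1 of the 50 was called in each comparison that uses Dnmt3a, near the shares of all genes there (2.7% rose, 1.84% rose and 2.4% fell). Mcm8 rose in Dnmt3a against MxCre (0.48), E2f1 rose in the libraries labelled Dnmt3a;Tnfr1KO (0.45) and Wdhd1 fell in Dnmt3a;Tnfr2KO (-0.45). Among genes of G2 and M phase, 11 of 49 rose in HSC/MPP-like cells in Dnmt3a against MxCre and none fell (4.26% and 5.14% of all genes). Their median was 0.33. Their summed level there, scaled to the UMI total, overlapped between the groups. It was 7439, 6160 and 6471 CPM in MxCre and 9623, 6752, 8338 and 9779 in Dnmt3a. In the same comparison 5 of the 49 rose and 2 fell in granulocyte-like cells (2.7% and 2.23% of all genes). In monocyte-like cells 0 rose and 2 fell (0.404% and 0.832% of all genes). In megakaryocyte-like cells 1 rose and 3 fell (0.886% and 0.495% of all genes), and none was called in erythroid-like cells. Mki67, the proliferation antigen Ki-67, had 235, 186 and 204 CPM in MxCre and 636, 329, 421 and 452 in Dnmt3a (log2 fold change 1.14, edgeR adjusted p = 0.0025).

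Lineages of the same mice were compared next, with up to 14 mice paired, so counts of calls cannot be set against those of the genotypes. They were tested against HSC/MPP-like cells with the mouse as a block, since every lineage of a mouse comes from 1 library, and most genes of any kind passed: 84.8% in granulocyte-like, 83.7% in monocyte-like, 73.9% in erythroid-like and 54.4% in megakaryocyte-like cells. Of the 40 genes, 22 were higher and 6 lower in granulocyte-like cells, 27 higher and 5 lower in monocyte-like, 17 higher and 6 lower in erythroid-like, and 14 higher and 5 lower in megakaryocyte-like cells. In each lineage the share of the 40 genes called (28, 32, 23 and 19 of 40) was below that of all genes. Of all genes tested, 42%, 40.6%, 36.9% and 26.4% were higher and 42.8%, 43.1%, 37% and 27.9% lower in these lineages, and the 27 of 40 in monocyte-like cells stood furthest above that share. Of the 9 licensing and helicase genes, 8 were higher and 1 was lower in granulocyte-like cells, and 7 were higher and 1 was lower in monocyte-like cells.

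Rrm2 had the largest difference in granulocyte-like cells, at 149 ± 28.9 CPM against 56.9 ± 17.2 in HSC/MPP-like cells (SD over 14 mice), a log2 fold change of 1.41 (SE 0.05) seen in 14 of 14 mice. Cdc45 followed with 45.2 ± 5.47 against 21.0 ± 2.85 (1.11, SE 0.04, 14 of 14 mice), and Gmnn, the inhibitor of origin licensing geminin, with 178 ± 15.7 against 117 ± 13.1 (0.60, SE 0.04, 14 of 14 mice). At the other end were Pola1 at -0.41 (0 of 14 mice higher), Dtl at -0.27 (0 of 14) and Wdr76, a chromatin-bound repeat protein, at -0.22 (2 of 14). Monocyte-like cells were alike at the top, with Rrm2 at 1.26, Cdc45 at 1.10 and Gins2, a helicase subunit, at 0.63, each higher in 14 of 14 mice, and they were lowest for Chaf1b (-0.29), Dtl (-0.24) and Pola1 (-0.20). The edgeR adjusted p-values of these genes were 0.00011 or smaller.

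Of the representatives, Mcm5 was higher in granulocyte-like (0.48, SE 0.03) and monocyte-like cells (0.58, SE 0.04), as were Cdc6 (0.35 and 0.34), Tyms (0.34 and 0.35), Ccne2 (0.27 and 0.28) and Pcna (0.10 and 0.15). Uhrf1 (-0.07 and 0.00), Exo1 (0.06 and 0.08), Blm (-0.05 and 0.02) and E2f8 (0.06 and 0.10) did not pass in either lineage. Brip1 was higher in monocyte-like cells (0.30, SE 0.05) and had -0.09 (SE 0.05, adjusted p = 0.092) in granulocyte-like cells; the difference between the 2 lineages was not tested.

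Erythroid-like cells had another order. Blm was highest, at 1.01 (SE 0.12, 14 of 14 mice), followed by E2f8 at 0.93 (SE 0.18) and Fen1, the flap endonuclease of lagging-strand maturation, at 0.90 (SE 0.11). Cdc6 was close behind (0.89, SE 0.15, 14 of 14 mice). Cdca7 was lowest, at 118 ± 28.6 CPM against 208 ± 31.9 in HSC/MPP-like cells (-0.84, SE 0.09), with its partner Hells at 65.9 ± 11.4 against 117 ± 20.9 (-0.83, SE 0.06), each lower in 14 of 14 mice. Brip1 came next (-0.59, SE 0.12). In megakaryocyte-like cells E2f8 (0.98, SE 0.06, 11 of 12 mice), Blm (0.66, SE 0.06, 12 of 12) and Rfc2, a clamp loader subunit (0.29, SE 0.03, 12 of 12), were highest. Cdc6 (-0.41, SE 0.08), Hells (-0.30, SE 0.06) and Dtl (-0.22, SE 0.05) were lowest.

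**Figure D4:**
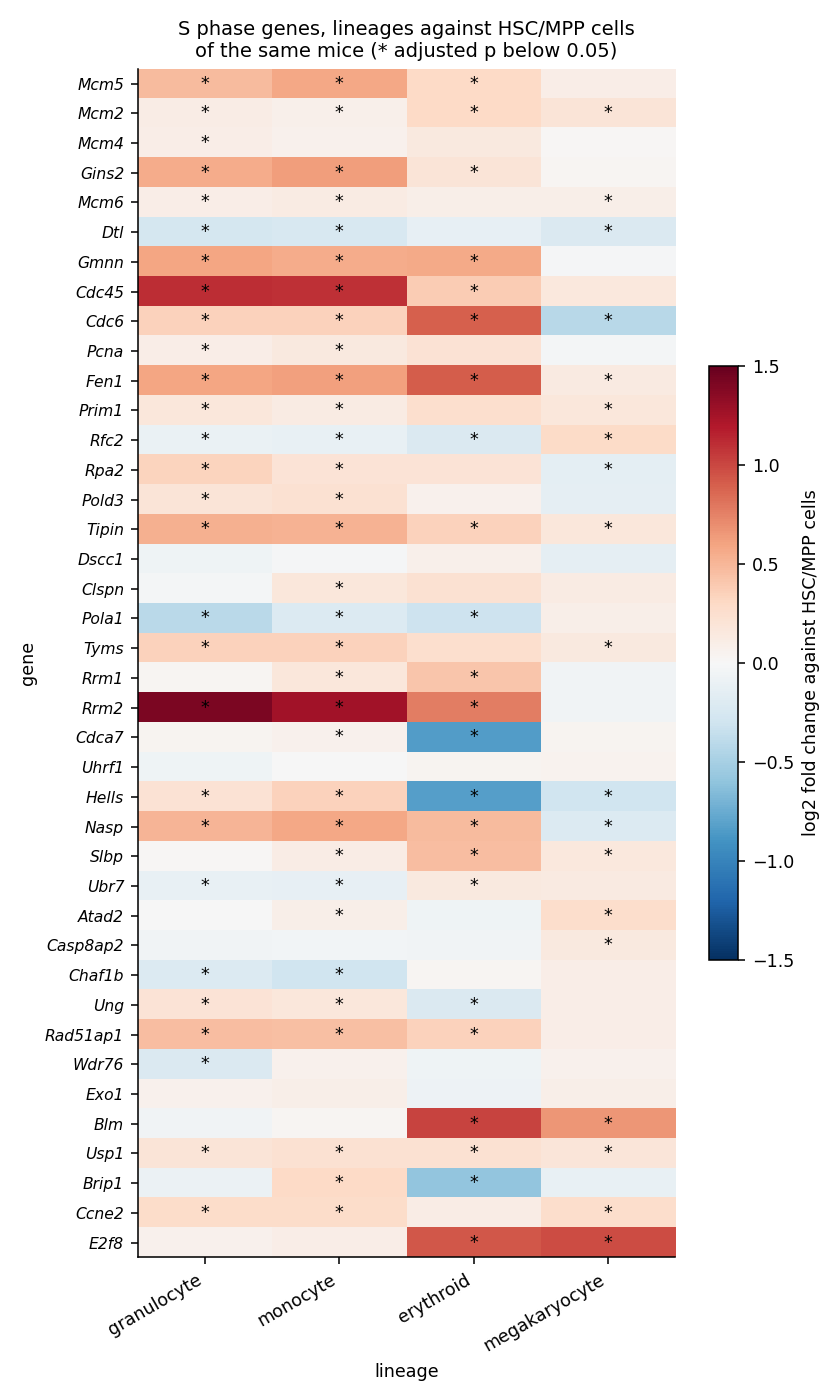
Heat map of the log2 fold change (colour scale, red higher and blue lower) of each S phase gene (rows, ordered by role) in granulocyte-like, monocyte-like, erythroid-like and megakaryocyte-like cells (columns) against HSC/MPP-like cells of the same mice. A star marks an edgeR adjusted p below 0.05. Rrm2 and Cdc45 are darkest red in the granulocyte and monocyte columns (1.41 and 1.11, 1.26 and 1.10), and Cdca7 and Hells are darkest blue in the erythroid column (-0.84 and -0.83).

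The summed level did not follow these counts. Scaled to the UMI total it was 3801 ± 356 CPM in HSC/MPP-like, 3500 ± 358 in granulocyte-like, 3754 ± 308 in monocyte-like, 3659 ± 618 in erythroid-like (SD over 14 mice) and 3814 ± 280 in megakaryocyte-like cells (12 mice). Granulocyte-like cells were below HSC/MPP-like cells in 14 of 14 mice on this scale, while the single-gene tests used TMM. The thinned share of cells with at least 10 S phase gene UMIs was 70.1% ± 7.2 in HSC/MPP-like, 85.1% ± 4.4 in granulocyte-like, 83.3% ± 5.8 in monocyte-like, 65.4% ± 9.6 in erythroid-like and 77.2% ± 7.4 in megakaryocyte-like cells. The shares before thinning were 88.9%, 99.4%, 95.0%, 84.7% and 94.2%. Mean S phase gene UMIs per thinned cell were 17.7 in both HSC/MPP-like and granulocyte-like cells, so at an equal mean the granulocyte-like cells had more of their cells above 10 UMIs.

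Within lineages, thinned cells were then divided by single markers or marker counts, divisions chosen after the data had been seen and given as descriptions. HSC/MPP-like cells with 3 of the 10 markers held 19.0 ± 2.1 S phase gene UMIs per cell (SD over 14 mice), and those with 4 held 18.4 ± 2.4. Cells with 5 markers held 15.0 ± 1.9 (12 mice), and those with 6 or more held 11.5 ± 3.0 (10 mice). The last were below the first in 10 of 10 mice, by a mean of 7.63 ± 2.10. Cells with a UMI of Hlf, a transcription factor of stem cells, held 16.8 ± 1.8 against 19.9 ± 3.0 without one, and were lower in 13 of 14 mice.

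Granulocyte-like and unassigned cells with at least 10 UMIs of Ngp, a secondary granule gene of maturing neutrophils, held 8.12 ± 2.49 S phase gene UMIs per thinned cell (11 mice). Those with fewer held 18.5 ± 1.9, and the first were lower in 11 of 11 mice. Mean UMIs of G2 and M phase genes went the other way, at 48.5 per cell in the first and 31.7 in those with fewer. A UMI of Cebpe, the transcription factor of granule gene expression, went with a small difference, 17.3 ± 2.0 against 18.2 ± 1.8, in the same direction in 14 of 14 mice. In erythroid-like cells the level was higher with more markers instead: 14.4 ± 2.7 with 3 markers (13 mice) and 21.3 ± 3.2 with 6 or more (14 mice), higher in 13 of 13 mice that had both. Dnmt3a replicate 4 was far off at 5 erythroid markers, with 3.76 UMIs per cell (34 cells). With 6 or more it had 27.5 (219 cells), the highest of all mice. Free RNA of neighbouring cells can add marker UMIs in all of these divisions, and its part was not tested.

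**Figure D5:**
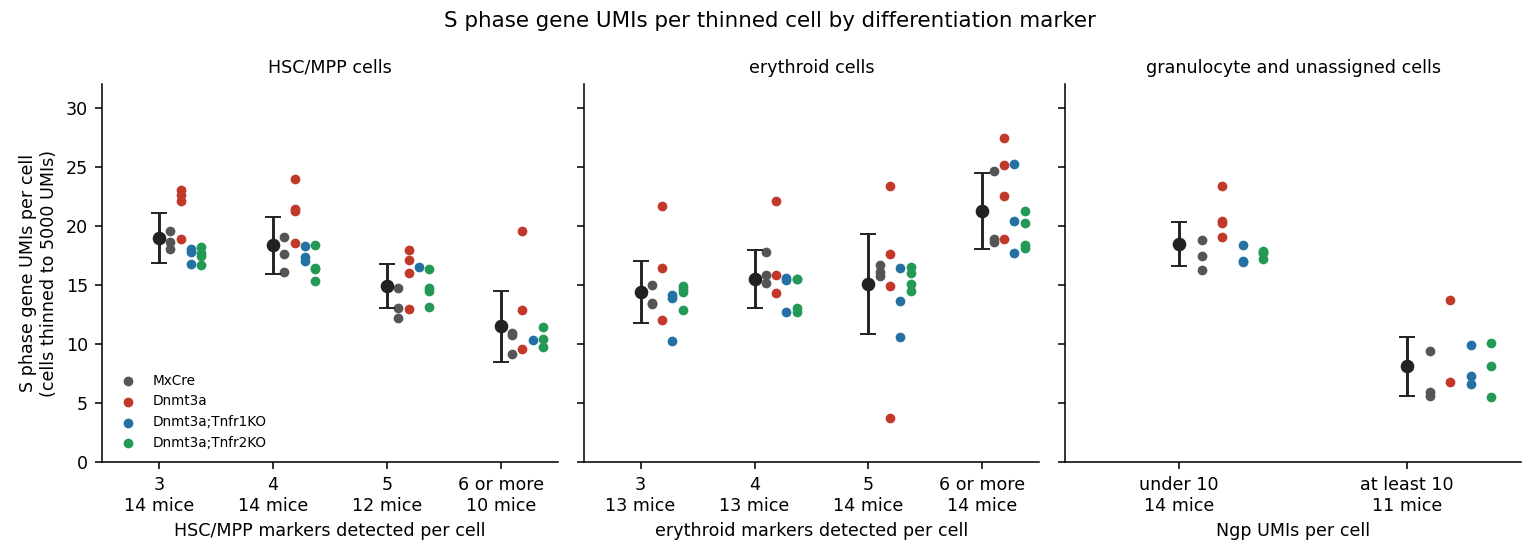
S phase gene UMIs per cell thinned to 5000 UMIs, by marker count or marker UMI within lineages, with each mouse as a point coloured by group and the mean ± SD over mice in black. The level falls from 19.0 to 11.5 with more HSC/MPP markers, is 8.12 in cells with at least 10 Ngp UMIs, and is 21.3 in erythroid-like cells with 6 or more markers.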

How the data were processed

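Per the labels' protocols, 12000 sorted cells of each mouse went into a 10x Chromium lane (version 3.1 chemistry). The deposited matrices hold whole-number UMI counts per gene and barcode without normalization, and their headers name Cell Ranger 6.0.0. The submitters' processing notes name bcl2fastq 2.20.0.422 and the builds mm10 and GRCm38, and the annotation is not given in the sources used here. Gene spans came from RefSeq GRCm38.p6.

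Barcodes below 1000 UMIs or 500 genes, or with 10% or more mitochondrial UMIs, were dropped. Doublets were called per library from simulated doublets, at 0.8% per 1000 cells, and removed. Lineages were set from 9 lists of 10 markers, counted in cells thinned to 5000 UMIs, with a minimum of 3 markers (4 for monocyte, basophil/mast and B-lymphoid lists, 6 for granulocyte). A cell with the monocyte minimum was not counted as granulocyte, and cells with 2 lineages were set aside. Mice with fewer than 20 cells of a lineage were left out of it.

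UMIs were summed per mouse and tested with edgeR 4.0.16 (R 4.3.3; TMM, filterByExpr, quasi-likelihood test, all 4 groups in 1 model, two-sided), with Benjamini-Hochberg adjustment over all genes tested and a threshold of 0.05. Standard errors were taken from the fold change and the F statistic. Summed levels have no test. The script was tested on simulated data. Of genes changed 1.5-fold in Dnmt3a against MxCre, edgeR called 2 of 97 over all kept cells and 24 of 100 in HSC/MPP-like cells. In granulocyte-like cells it called 36 of 100 in Dnmt3a;Tnfr2KO against Dnmt3a. For 2-fold changes these were 34, 69 and 81 of 100. The granulocyte contrast with a mouse block recovered 88 and 97 of 100. Its simulation used a fixed spread and mouse effects shared by both lineages, and left out genes of low count. The others took their spread from the data, so its recovery cannot be set beside theirs. A gene without a call can therefore still differ by such folds. Alternatives were DESeq2 1.42.0, RLE factors, a replicate block, other filters, stricter marker minima, doublets kept, leaving out each mouse, and, added after the data had been seen, the removal of a trend with gene span. Another made lineage shares equal between mice and was fitted with limma 3.58.1. Same-numbered mice did not vary together (correlations of -0.33 to 0.26 over 19 pairs, median -0.04), and the labels name no batch.

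The 40 genes, the lists and the tests were chosen with earlier results of these data known. The rule for named genes took, in each comparison, 12 genes that stand for the roles (Mcm5, Cdc6, Pcna, Pola1, Rrm2, Tyms, Uhrf1, Chaf1b, Blm, Exo1, Ccne2 and E2f8), up to 8 called genes of largest change or the 2 of lowest adjusted p where fewer than 2 were called, and the 3 highest and 3 lowest genes of a lineage contrast. The text departs from it in part: all 12 are given for HSC/MPP-like cells in Dnmt3a against MxCre and for the 3 granulocyte-like comparisons with Dnmt3a, and elsewhere by their extremes, in part, or by their adjusted p alone. In Dnmt3a;Tnfr2KO against Dnmt3a;Tnfr1KO, where adjusted p-values tied, the 2 of lowest adjusted p are not given. Of other replication genes, up to 4 called ones were named.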

Additional observations from a re-analysis of the deposited data

Results flagged for a closer look

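In 104 sets of 4 mice, the highest or lowest mouse was compared with the other 3. The sets were summed levels, thinned shares of cells with at least 10 S phase gene UMIs, and each of the 40 genes over all kept cells. Of these, 4 sets held a mouse whose gap to the nearest other exceeded Dixon's 95% critical value. Chance alone flags about 1 in 20 such sets. Dnmt3a replicate 1 had a summed S phase gene level of 4434 CPM in granulocyte-like cells, against 3758 to 3845 in the other 3 Dnmt3a mice. In monocyte-like cells it had 4640, against 3903 to 4028. Atad2 had 214 CPM over all kept cells of that mouse, against 138 to 139 in the other 3. Pcna had 243 CPM over all kept cells of Dnmt3a;Tnfr2KO replicate 2, against 213 to 218 in the other 3 mice of that group. The library of Dnmt3a replicate 1 is the one with 5138 of 7257 barcodes under 1000 UMIs and 0.856% histone UMIs, whose part in its levels was not tested.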

How the results depend on the processing

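Over all kept cells the count of S phase genes called in Dnmt3a against MxCre was 1. It was 8 with DESeq2 (10.7% of all genes), 0 with only the 2 groups compared in the model (0.0474%) and 3 with cells of at least 5000 UMIs (2.97%). With lineage shares made equal between mice it was 10 (4.94%). That fit used limma on log2 CPM scaled to the UMI total, without TMM. It covered HSC/MPP-like, granulocyte-like, monocyte-like, erythroid-like and unassigned cells, so the part of lineage shares alone was not tested. With edgeR the count was 0 to 5 when each mouse was left out, with 5 without Dnmt3a replicate 2 (8.34%) and 4 without Dnmt3a replicate 4 (2.56%). For Dnmt3a;Tnfr1KO and Dnmt3a;Tnfr2KO against Dnmt3a DESeq2 called 1 each (6.34% and 7.64%), and leaving out mice gave 0 to 2 for the second, with 2 without Dnmt3a replicate 2 (5.24%) and 0 where 0.199% to 4.8% of all genes were called. With the replicate number as a block, which does not pair these mice, the count in Dnmt3a against MxCre was 2 (0.967% of all genes) and those of the other 3 comparisons were 0.

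The median log2 fold change of the 40 genes moved in some lineages. For Dnmt3a;Tnfr2KO against Dnmt3a;Tnfr1KO it was -0.095 in HSC/MPP-like cells with stricter marker minima and -0.070 in erythroid-like cells with the replicate block. With the span trend removed, it was -0.080 and -0.13 in granulocyte-like cells for Dnmt3a;Tnfr1KO and Dnmt3a;Tnfr2KO against Dnmt3a, in place of -0.018 and -0.078. When each mouse was left out, these 2 medians ran from -0.072 to 0.037 and from -0.12 to -0.054. Stricter minima gave megakaryocyte-like medians of 0.18 for Dnmt3a against MxCre, -0.23 for Dnmt3a;Tnfr1KO against Dnmt3a and 0.26 for Dnmt3a;Tnfr2KO against Dnmt3a;Tnfr1KO. Without the mouse block, 8 genes were called between megakaryocyte-like and HSC/MPP-like cells in place of 19, where 40% of all genes were called in place of 54.4%. Leaving out each mouse gave these medians: Dnmt3a against MxCre, 0.094 to 0.20 in granulocyte-like, 0.085 to 0.19 in monocyte-like and 0.05 to 0.74 in erythroid-like cells; Dnmt3a;Tnfr2KO against Dnmt3a, -0.20 to -0.081 in HSC/MPP-like and -0.78 to -0.027 in erythroid-like cells, the last without Dnmt3a replicate 4; Dnmt3a;Tnfr2KO against Dnmt3a;Tnfr1KO, -0.077 to 0.011 in HSC/MPP-like cells; Dnmt3a;Tnfr1KO against Dnmt3a, -0.82 to -0.14 in erythroid-like and -0.11 to 0.015 in megakaryocyte-like cells, where both ends rest on 1 Dnmt3a mouse, assumed to vary like the other groups.

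The log2 difference of the summed level over all kept cells was -0.028 for Dnmt3a;Tnfr1KO and -0.0035 for Dnmt3a;Tnfr2KO against Dnmt3a under TMM. As a mean over cells it was -0.11 for Dnmt3a;Tnfr2KO against Dnmt3a and 0.10 for Dnmt3a;Tnfr2KO against Dnmt3a;Tnfr1KO. With a minimum of 20 UMIs per thinned cell, the share of cells differed by -11.0 and -9.80 percentage points for the 2 receptor groups against Dnmt3a. The cause of these moves was not tested. Of the 28 calls of single genes, 28 remained with DESeq2, 26 with doublets kept, 20 with the replicate block and 14 with the span trend removed. With stricter marker minima 22 of 27 remained. Over all fits that leave out 1 mouse, the genes stayed called in 84 of 199 cases. None changed sign in these settings. For the removal of the span trend, the share of all genes called is not given. In Dnmt3a against MxCre DESeq2 called 10.8% of genes with an adjusted p in granulocyte-like cells, where edgeR called 2.7% higher and 2.23% lower. In HSC/MPP-like cells DESeq2 called 10.2%, and edgeR 4.26% higher and 5.14% lower. How many calls of other genes remained in each setting is not given. These counts therefore do not show whether calls of S phase genes held better than those of other genes.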
